A study of Homo sapiens with 6 samples.

Results

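The replication-dependent histone genes code for the H1, H2A, H2B, H3 and H4 proteins that package newly copied DNA. They were taken as the rows of the deposited count table whose symbols follow the nomenclature of the clustered histone genes (H1-1 to H1-6, and H2AC, H2BC, H3C or H4C with a number). The rule found 66 members among 39396 genes: 6 of class H1, 16 of H2A, 17 of H2B, 13 of H3 and 14 of H4. RNA sequencing was done on cells labelled RKO, an established human colorectal carcinoma line, with the genotype given as WT in all libraries. Cells were plated 24 h before treatment. One group of 3 libraries was treated with olaparib, an inhibitor of the PARP enzymes that sense DNA strand breaks, and the other group of 3 with the solvent DMSO. The olaparib dose and exposure time, the RNA that was selected and the strandedness of the libraries were not given in the sources used here.

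These genes are a special case among protein-coding genes. Most have no intron, they lie in clusters that share a nuclear body, the histone locus body, and they are transcribed mainly while DNA is replicated. Their mRNAs end after a conserved stem-loop in place of a poly(A) tail: the stem-loop binding protein SLBP and the U7 snRNP direct the cut, and the same stem-loop later serves the rapid decay of the mRNA. Some members also give polyadenylated transcripts, and a library made from polyadenylated RNA takes up the stem-loop form poorly.

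Library totals ran from 28715138 to 42423785 counts, so members at a few counts per library were measured imprecisely. No label ties the replicates to separate cultures; the p-values then cover the spread among these 6 libraries alone, and that spread may be technical. The markers did not place both groups on the same footing. Of 5 genes known from embryonic kidney lines (IRS4, PAX2, LIN28B, NEFL and NEFM), all were lower in the olaparib libraries, where they summed to 0 to 0.106 CPM (counts scaled to library size) against 225 to 405 CPM with DMSO, and PAX2, LIN28B and NEFL had no count with olaparib. CDX2, an intestinal transcription factor, had no count with olaparib and 24.5 ± 2.0 CPM (SD, n = 3) with DMSO, and CDX1 had no count in any library. VIL1, LGALS4 and KRT20, the rest of the intestinal list, were too low to test in both groups. They had 6, 17 and 18 counts with olaparib and 13, 17 and 4 with DMSO, so CDX2 alone separated the groups in this list. The 5 epithelial markers summed to 807 to 1089 CPM with olaparib and 219 to 286 CPM with DMSO, mostly KRT8 and KRT18. Of the 4 tested, KRT8, KRT18 and EPCAM were higher with olaparib. CDH1 was low in both groups and did not differ clearly (0.808 against 0.900 CPM, edgeR adjusted p = 0.765). KRT19 was near absent from both, with 5 counts with olaparib and 0 with DMSO. The 5 fibroblast and blood markers summed to 100 to 134 CPM against 68.9 to 77.8 CPM, with HBB at 0 in all libraries. That sum was nearly all COL1A1, which was higher with olaparib, whereas COL3A1 and DCN, the other tested markers of that list, were 12.9-fold and 3.51-fold lower. A difference in cell source and the treatment cannot be told apart here, and every direction below is between libraries as labelled.

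The stem-loop that defines these mRNAs is shown for members on which the results turn. It was searched downstream of the stop codon in the transcripts of GENCODE release 29 and found in 28 members; the models of most other members end before it. The stem-loop is in capitals, with bases of the same transcript on either side in lower case.
H3C8: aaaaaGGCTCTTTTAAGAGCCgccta
H2BC4: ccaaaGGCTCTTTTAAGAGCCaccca
H2BC9: ccaaaGGCTCTTTTCAGAGCCactta
H2AC6: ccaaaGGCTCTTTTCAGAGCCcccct
H2AC11: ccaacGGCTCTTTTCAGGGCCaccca
H3C6: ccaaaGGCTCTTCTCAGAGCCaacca
H4C8: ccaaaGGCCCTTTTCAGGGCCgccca
H4C9: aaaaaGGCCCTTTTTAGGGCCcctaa

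The form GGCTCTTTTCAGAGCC was found in 15 members, of classes H2A, H2B and H3. The form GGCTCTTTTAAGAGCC was found in 4 (H2BC4, H2BC5, H2BC7 and H3C8), and the members of class H4 had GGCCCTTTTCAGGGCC (H4C2, H4C5, H4C8 and H4C11) or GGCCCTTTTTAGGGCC (H4C9, H4C14 and H4C15). H3C6 and H2AC11 each had a form of their own.

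Promoters of 4 members are shown: H3C8, H2BC8 and H4C8, which were called higher below, and H2BC12, which was not called. Each is the 250 bases before the start site in RefSeq on GRCh38.p14, all on the minus strand of chromosome 6. Capitals mark matches on either strand to CCAAT (the NF-Y box), TATAAA (the TATA box) and ATTTGCAT (the octamer bound by OCT1, the product of POU2F1). In H2BC12, 2 of the TATAAA matches, read in opposite directions, overlap.
H3C8, chr6:26271414-26271663: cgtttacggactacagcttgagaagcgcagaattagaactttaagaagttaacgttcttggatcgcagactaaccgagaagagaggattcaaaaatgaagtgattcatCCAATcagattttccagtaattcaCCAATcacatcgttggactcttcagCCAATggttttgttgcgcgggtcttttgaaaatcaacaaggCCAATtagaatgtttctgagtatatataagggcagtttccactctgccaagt
H2BC8, chr6:26216689-26216938: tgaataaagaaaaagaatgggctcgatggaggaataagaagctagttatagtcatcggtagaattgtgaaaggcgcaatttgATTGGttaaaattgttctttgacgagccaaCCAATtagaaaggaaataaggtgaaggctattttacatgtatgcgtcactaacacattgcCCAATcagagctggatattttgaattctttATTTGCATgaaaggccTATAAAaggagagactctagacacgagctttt
H2BC12, chr6:27146859-27147108: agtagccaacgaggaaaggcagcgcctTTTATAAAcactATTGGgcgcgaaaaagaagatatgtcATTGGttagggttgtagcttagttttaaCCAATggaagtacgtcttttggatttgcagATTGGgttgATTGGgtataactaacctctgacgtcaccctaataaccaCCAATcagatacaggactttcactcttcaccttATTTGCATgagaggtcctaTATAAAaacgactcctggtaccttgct
H4C8, chr6:26285535-26285784: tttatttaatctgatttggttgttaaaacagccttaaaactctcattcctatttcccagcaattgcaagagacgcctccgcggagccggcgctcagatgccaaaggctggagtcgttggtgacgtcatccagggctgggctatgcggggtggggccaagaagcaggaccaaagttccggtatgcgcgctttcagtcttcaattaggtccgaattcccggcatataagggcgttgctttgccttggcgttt

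H3C8 held 4 CCAAT matches and no octamer, H2BC8 held 3 CCAAT matches and 1 octamer, and H2BC12 held 6 CCAAT matches and 1 octamer. These letters were not found in the H4C8 window.

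RNA from the clustered histone genes made up a larger share of the olaparib libraries than of the DMSO libraries, and the classes differed. Counts of all 66 members summed to 395, 432 and 435 CPM in olaparib replicates 1 to 3 and to 222, 342 and 303 CPM in DMSO replicates 1 to 3. The means were 421 ± 22.4 and 289 ± 61.6 CPM (SD, n = 3), a ratio of 1.46, and the groups did not overlap. Here and in all bulk values, fewer cells of a type and less RNA per cell cannot be told apart.

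Class H2A, whose protein pairs with H2B in the nucleosome, summed to 105, 118 and 126 CPM with olaparib and to 34.3, 46.1 and 44.7 CPM with DMSO, a ratio of 2.79. Class H2B itself summed to 175, 185 and 184 CPM with olaparib and 123, 180 and 165 CPM with DMSO, a ratio of 1.16. The H2A groups did not overlap, whereas for H2B DMSO replicate 2 lay above olaparib replicate 1. Class H3, which forms a tetramer with H4, summed to 20.1, 26.1 and 26.3 CPM with olaparib and 8.86, 8.93 and 10.1 CPM with DMSO, a ratio of 2.60. Class H4 summed to 49.9, 54.9 and 50.7 CPM with olaparib and 23.8, 39.5 and 31.5 CPM with DMSO, a ratio of 1.64. Class H1, the linker histones that bind DNA between nucleosomes, summed to 44.4, 47.8 and 48.6 CPM with olaparib and 31.9, 67.4 and 51.4 CPM with DMSO. The H1 groups overlapped, and DMSO replicates 1 and 2 lay on either side of all olaparib libraries.

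**Figure D1:**
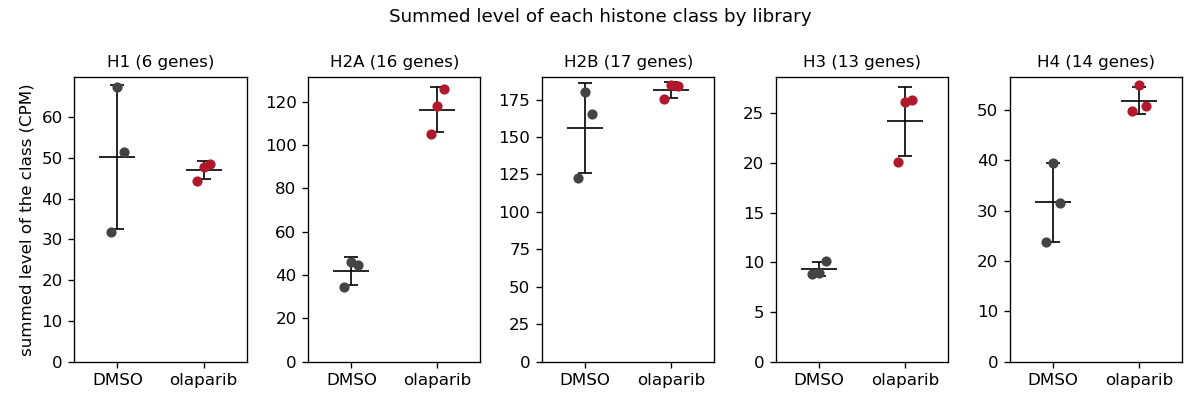
Summed CPM of the members of each histone class (y axis, linear from 0, with its own range in each panel) in the 3 DMSO and 3 olaparib libraries. Points are libraries, the horizontal line is the mean and the bars are ±1 SD; the olaparib libraries sit above all DMSO libraries for H2A, H3 and H4, overlap with them for H2B and lie between them for H1.

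In most classes 1 gene gave much of the sum, by counts that are not scaled to length. H2AC6 gave 76.1% of the H2A counts with olaparib and 69.0% with DMSO, H2BC12 gave 53.0% and 62.9% of the H2B counts, and H4C9 gave 49.6% and 75.8% of the H4 counts. H1-2 gave 98.6% and 94.6% of the H1 counts. Without these genes the remaining H2A members summed to 27.8 ± 1.59 CPM with olaparib and 12.7 ± 0.802 CPM with DMSO (n = 3 each), a ratio of 2.19. The remaining H2B members summed to 85.2 ± 3.02 and 57.3 ± 4.54 CPM, a ratio of 1.49. The remaining H4 members summed to 26.1 ± 0.875 and 7.48 ± 0.210 CPM, a ratio of 3.49. The remaining H1 members, all at low counts, were lower with olaparib, at 0.670 ± 0.186 against 2.66 ± 0.982 CPM. The classes H2B and H4 therefore moved further apart between groups once H2BC12 and H4C9 were left out.

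Of the 66 members, 6 had no count in any library (H2AC1, H2AC7, H2AC15, H2BC1, H4C6 and H4C13), 25 had counts too low for the test and 35 were tested in a fit over 17078 genes. Of the 35, 18 rose (51.4%), 2 fell and 15 were not called by edgeR's quasi-likelihood test at an adjusted p of 0.05. Over all genes tested, 35.4% were called higher, 40.3% lower and 75.7% in either direction, so calls as such were common, and 57.1% of the tested members were called. The median log2 fold change was 0.67 over the tested members, with a range of -2.48 to 5.63, and -0.09 over all genes. In 19 members all olaparib libraries lay above all DMSO libraries and in 3 below, against 37.3% and 42% of all genes tested (79.4% in either direction). The expression filter asks for at least 3 libraries at or above 0.328 CPM. H2AC8, H2AC19, H2BC7, H3C8, H3C13 and H4C12 passed it through the olaparib libraries, since fewer than 3 DMSO libraries reached that level, and H1-4, H2AC12 and H2AC20 passed it through the DMSO libraries. A member that passes in this way tends to differ between groups. The counts and medians over tested members are therefore descriptions of those members, not of all 66.

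**Figure D2:**
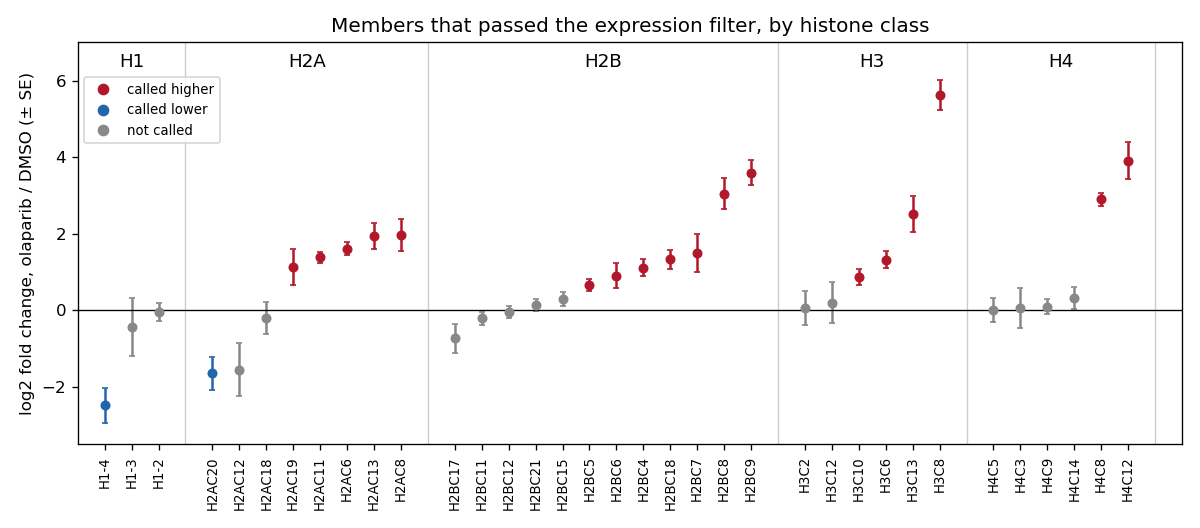
Log2 fold change, olaparib over DMSO, with its standard error (y axis) for each of the 35 tested members, grouped by histone class and ordered by value within it (x axis). Red points were called higher, blue lower and grey not called; H3C8 is highest at 5.63 and H1-4 lowest at -2.48.

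Among the linker histones none of the 3 tested members rose, and H1-4 fell (35.4% of all genes tested were called higher and 40.3% lower). The expression filter was passed by H1-4 through the DMSO libraries. H1-4 (chromosome 6, as all members placed below without a chromosome, 26156354 to 26157107) had 0.384, 0.229 and 0.389 CPM with olaparib and 2.56, 2.02 and 1.04 CPM with DMSO. It was 5.58-fold lower with olaparib, with a log2 fold change of -2.48 ± 0.45 (SE) and an edgeR adjusted p of 0.000313. The groups did not overlap. H1-2 (26055787 to 26056428) had 43.7, 46.9 and 48.1 CPM with olaparib and 28.6, 64.3 and 49.9 CPM with DMSO. The DMSO libraries of H1-2 spanned the olaparib libraries, and its log2 fold change was -0.04 ± 0.22 (adjusted p = 0.883); without DMSO replicate 1 it was -0.31 and was called lower (adjusted p = 0.036). H1-3 was not called (log2 fold change -0.43, adjusted p = 0.614). Of the untested members H1-5 had 4 counts with olaparib and 38 with DMSO, H1-1 had 0 and 7, and H1-6, known from testis, had 5 and 4.

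Among the H2A genes 5 of 8 tested members rose and 1 fell (62.5% and 12.5%, against 35.4% and 40.3% of all genes tested). H2AC8 and H2AC19 passed the expression filter through the olaparib libraries, and H2AC12 and H2AC20 through the DMSO libraries. These shares therefore describe the tested members only. H2AC6 (26124145 to 26139116) had 79.1, 90.1 and 96.4 CPM with olaparib and 21.1, 34.3 and 31.6 CPM with DMSO. It was 3.06-fold higher (log2 fold change 1.61 ± 0.16, edgeR adjusted p = 2.08e-06), and every olaparib library was more than double the highest DMSO library. H2AC8 (26216975 to 26217483) had 2.02, 2.71 and 2.02 CPM against 0.237, 0.674 and 0.814 CPM and was 3.92-fold higher (1.97 ± 0.42, adjusted p = 0.00106). H2AC13 (27808199 to 27808701) had 2.90, 2.03 and 2.58 CPM against 0.475, 0.573 and 0.882 CPM and was 3.84-fold higher (1.94 ± 0.35, adjusted p = 0.000263). H2AC11 had 20.8 ± 1.71 CPM against 7.92 ± 0.797 CPM and was 2.62-fold higher (adjusted p = 3.23e-06). These 4 members did not overlap between groups.

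H2AC20 moved the other way. It lies in the cluster on chromosome 1 (149886975 to 149887364) and had 0.279, 0.457 and 0.708 CPM with olaparib and 1.83, 0.977 and 1.67 CPM with DMSO. It was 3.11-fold lower (log2 fold change -1.64 ± 0.43, edgeR adjusted p = 0.00425), without overlap. H2AC19 and H2AC18, both on chromosome 1, have identical coding sequences in GENCODE, so reads between them may have been split arbitrarily. H2AC19 was called 2.20-fold higher (adjusted p = 0.042), a call that was lost without any 1 of the 6 libraries (adjusted p 0.0569 to 0.159), and H2AC18 was not called (adjusted p = 0.689). H2AC12 was lower without overlap but not called (log2 fold change -1.55 ± 0.70, adjusted p = 0.0606); without olaparib replicate 2 it was -2.37 and was called (adjusted p = 0.0315). H2AC4 had no count with olaparib and 17 counts with DMSO and was not tested. The other untested members with counts, H2AC14, H2AC16, H2AC17 and H2AC21, had 4 to 13 counts with olaparib and 7 to 18 with DMSO.

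Among the H2B genes 7 of 12 tested members rose (58.3%) and none was called lower, against 35.4% and 40.3% of all genes tested. The 7 include H2BC7, which passed the expression filter through the olaparib libraries. H2BC9 (26251651 to 26253710) had 4.81, 6.96 and 8.24 CPM with olaparib and 0.570, 0.337 and 0.701 CPM with DMSO. It was 12.1-fold higher (log2 fold change 3.59 ± 0.33, edgeR adjusted p = 8.1e-07). H2BC8 (26215159 to 26216692) had 6.49, 6.21 and 6.93 CPM against 0.356, 0.539 and 1.42 CPM and was 8.26-fold higher (3.05 ± 0.40, adjusted p = 2.11e-05). DMSO replicate 3 was the highest of its group for H2BC8, and without it the log2 fold change was 3.87. Both genes were clear of overlap by a wide margin. H2BC18, H2BC4 and H2BC5 were 2.52-fold, 2.17-fold and 1.59-fold higher (adjusted p 0.000256, 0.000583 and 0.00171).

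The remaining calls in the class were less stable. H2BC7 had 0.767, 0.751 and 1.84 CPM with olaparib and 0.570, 0.337 and 0.271 CPM with DMSO and was 2.81-fold higher (log2 fold change 1.49 ± 0.50, edgeR adjusted p = 0.0161). Olaparib replicate 3 stood above the other libraries, and the call was lost without it (adjusted p = 0.129), without DMSO replicate 2 (0.053) or without DMSO replicate 3 (0.0774). H2BC6 was 1.87-fold higher (adjusted p = 0.0243) and lost its call without olaparib replicate 1 (0.0666), olaparib replicate 3 (0.0624) or DMSO replicate 2 (0.0565). H2BC12, the member with the most counts, had 93.2, 96.9 and 98.5 CPM with olaparib and 70.6, 120 and 106 CPM with DMSO. Its groups overlapped and it was not called (log2 fold change -0.04 ± 0.16, adjusted p = 0.837), but without DMSO replicate 1, its lowest library, it was -0.24 and called lower (adjusted p = 0.0435). H2BC11, H2BC15, H2BC17 and H2BC21 were not called either (adjusted p 0.0966 to 0.439). Of the untested members H2BC10 had 7 counts with olaparib and none with DMSO, H2BC3 and H2BC14 had none with olaparib and 5 and 6 with DMSO, and H2BC13 had 16 and 17.

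Among the H3 genes 4 of 6 tested members rose (66.7%, against 35.4% of all genes tested), and H3C8 had the largest rise of all members. H3C8 and H3C13 passed the expression filter through the olaparib libraries alone, so this share describes the tested members only. H3C8 (26269405 to 26271815) had 4.12, 7.12 and 7.04 CPM with olaparib and 0.142, 0.0674 and 0.136 CPM with DMSO, from 535 and 14 counts. It was 49.4-fold higher (log2 fold change 5.63 ± 0.39, edgeR adjusted p = 8.43e-08), and the lowest olaparib library was far above every DMSO library. H3C13, on chromosome 1 (149813271 to 149813681), had 0.733, 1.31 and 1.24 CPM against 0.214, 0.135 and 0.203 CPM and was 5.74-fold higher (2.52 ± 0.46, adjusted p = 0.000312). These values came from 96 and 22 counts, and no DMSO library reached the filter level. The coding sequence of H3C13 is 97.1% identical to that of H3C14, so the split of reads between them is uncertain. H3C6 (26224199 to 26227473) had 6.59, 7.12 and 7.96 CPM against 3.25, 2.12 and 3.19 CPM and was 2.51-fold higher (1.33 ± 0.23, adjusted p = 0.000176). All 3 were without overlap.

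H3C10 (27810064 to 27811300), with the most counts in its class, had 7.12, 7.91 and 6.37 CPM with olaparib and 3.32, 4.31 and 4.07 CPM with DMSO. It was 1.83-fold higher (log2 fold change 0.87 ± 0.20, edgeR adjusted p = 0.00182), again without overlap. H3C2 ran from 0.558 to 2.55 CPM within the olaparib group, a wider range than in DMSO, and was not called (adjusted p = 0.907). H3C12 was not called (adjusted p = 0.740). The 7 untested H3 members had 0 to 18 counts with olaparib and 0 to 27 with DMSO; H3C14 and H3C15, whose coding sequences are identical, had 15 and 11 counts with olaparib and 6 and 8 with DMSO.

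Among the H4 genes, nearly all of which encode the same protein, 2 of 6 tested members rose and the other 4 were not called. That share, 33.3%, was close to the 35.4% of all genes tested. It includes H4C12, which passed the expression filter through the olaparib libraries alone. H4C8 (26277609 to 26285638) had 17.2, 17.6 and 17.8 CPM with olaparib and 2.52, 2.12 and 2.35 CPM with DMSO. It was 7.49-fold higher (log2 fold change 2.91 ± 0.17, edgeR adjusted p = 1.76e-08), and the libraries of each group lay close together. H4C12 (27831216 to 27831527) had 2.86, 1.83 and 2.65 CPM against 0.142, 0.303 and 0.0678 CPM, from 213 and 18 counts. It was 15.0-fold higher (3.90 ± 0.48, adjusted p = 1.23e-05), without overlap, and its log2 fold change was 4.49 without DMSO replicate 2. Its coding sequence is identical to that of H4C11, which had 23 and 8 counts and was not tested, so the split of reads between the pair is uncertain.

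H4C9 (27138588 to 27139881) had 24.7, 28.3 and 24.1 CPM with olaparib and 16.5, 31.8 and 24.1 CPM with DMSO. The DMSO libraries of H4C9 spanned the olaparib libraries and it was not called (log2 fold change 0.09 ± 0.19, edgeR adjusted p = 0.668). H4C14, H4C5 and H4C3 were not called (adjusted p 0.321, 0.985 and 0.924). Of the untested members H4C15, identical in coding sequence to H4C14, had 30 counts with olaparib and 9 with DMSO. H4C2 had 2 and 13, H4C7 had 7 and none, H4C1 had 1 and 7, and H4C4 had 19 and 16. H1-2, H2BC12 and H4C9, the members with the most counts in their classes, were all at their lowest in DMSO replicate 1 and at their highest in DMSO replicate 2.

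**Figure D3:**
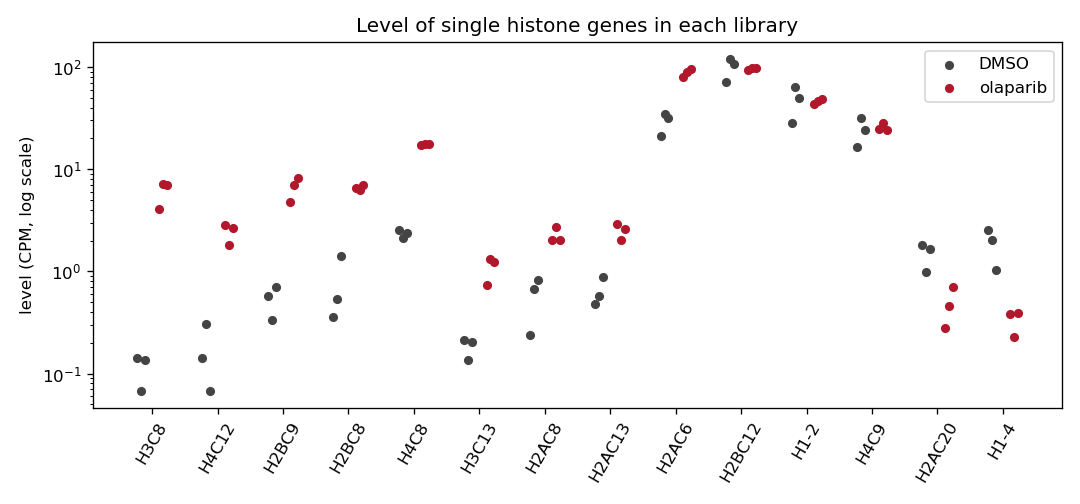
CPM of 14 members (y axis, logarithmic) in each of the 3 DMSO (grey) and 3 olaparib (red) libraries. H3C8 to H2AC6 lie higher with olaparib without overlap, H2BC12, H1-2 and H4C9 overlap between groups, and H2AC20 and H1-4 lie lower.

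The members lie in 3 stretches of the genome, and 4 of the 5 largest rises were close together. The first part of the cluster on the short arm of chromosome 6 (25726132 to 26285638 on GRCh38, GENCODE models) holds 34 members, of which 17 were tested, 11 rose and 1 fell, with a median log2 fold change of 1.12. H2BC8, H2BC9, H3C8 and H4C8 all lie in its last stretch, and H4C12 lies in the second part. The last stretch also holds H2AC8 (log2 fold change 1.97), H3C6 (1.33) and H1-3 (-0.43, not called). H4C6, H4C7, H3C7 and H2BC10, in the same stretch, were not tested. The second part (27125897 to 27893843) holds 21 members, of which 11 were tested and 4 rose, with a median of 0.21. The cluster on chromosome 1 (149782689 to 149887916) holds 11 members, of which 7 were tested, 3 rose and 1 fell, with a median of 0.32. The shares of tested members that rose were 64.7%, 36.4% and 42.9% in this order, against 35.4% of all genes tested. The share of the second part was thus close to that of all genes. These shares include members that passed the expression filter through only 1 group of libraries, and the difference between the stretches was not tested.

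**Figure D4:**
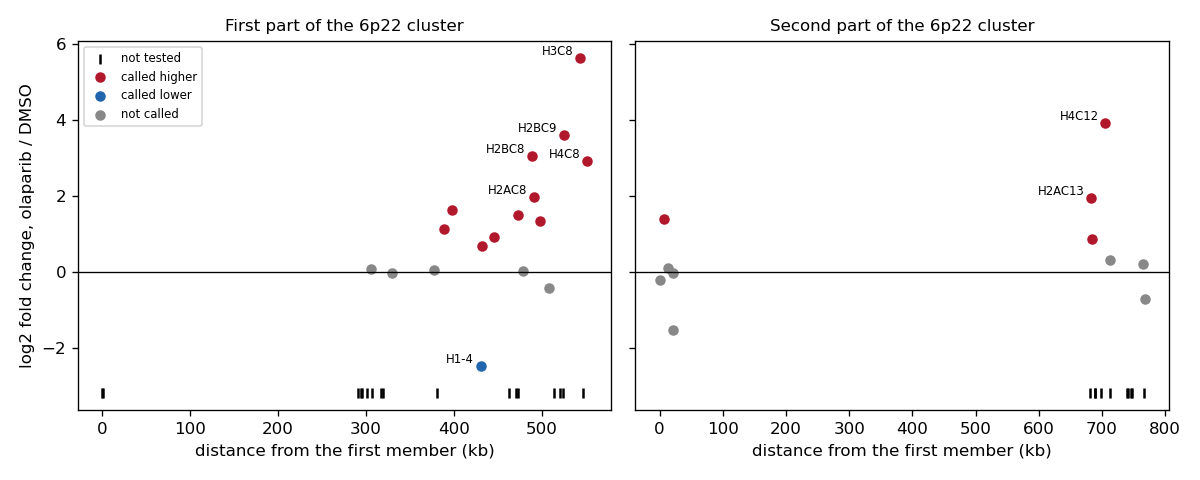
Log2 fold change, olaparib over DMSO (y axis), against the distance in kb from the first member (x axis) in the first and second part of the chromosome 6 cluster. Red points were called higher, blue lower and grey not called, and ticks at the bottom are members that were not tested; H2BC8, H2BC9, H3C8 and H4C8 lie near the end of the first part.

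Other protein-coding genes of the same stretches were few among the tested genes, so wider windows were counted as well. Between the members of the first part 2 other genes were tested, TRIM38 and HFE, and both rose (median log2 fold change 2.66). Between those of the second part PRSS16, ZNF391 and ZNF184 were tested, of which none rose and 1 fell. In windows that reach 1 Mb beyond each stretch and include the genes just named, 6 of 13 genes rose and 3 fell around the first part, 9 of 24 rose and 7 fell around the second, and 12 of 29 rose and 9 fell around the chromosome 1 cluster. The windows around the first and second part share genes (PRSS16, ABT1, ZNF322, HMGN4 and 5 BTN genes), so they are not separate sets. The 3 windows had medians of 0.40, 0.12 and 0.22 on the log2 scale, with single genes from -9.01 to 7.25. Over all genes tested, 35.4% were called higher and 40.3% lower.

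Many H2A and H2B genes face each other across a shared promoter, and 11 pairs of members had starts at most 500 bases apart on opposite strands. All were of an H2A and an H2B gene except H3C12 with H2BC17. That pair rests on a long GENCODE model of H3C12 that runs over H2AC17, which itself faces H2BC17 at 313 bases. Both genes were tested in 6 pairs, and both rose in 2 of them: H2BC4 with H2AC6 (218 bases apart, log2 fold changes 1.12 and 1.61) and H2BC8 with H2AC8 (282 bases apart, 3.05 and 1.97). In H2BC11 and H2AC11, 291 bases apart, the first was not called (-0.21) and the second rose (1.39). In H2BC21 and H2AC20, 322 bases apart, the first was not called (0.14) and the second fell (-1.64). Neither gene was called in H2BC12 with H2AC12 or in H3C12 with H2BC17. Facing genes therefore had both like and unlike calls.

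RefSeq promoter windows, the 250 bases before and 50 after the start, were matched by symbol to 61 members. CCAAT occurred in 52 of the 61 windows (85.2%), against 34.6% of 35093 windows of all genes in that table. TATAAA occurred in 41 (67.2% against 11.5%) and the octamer ATTTGCAT in 26 (42.6% against 1.8%), with both strands searched and facing pairs sharing most of a window. The octamer was in 14 of 17 H2B windows and 11 of 15 H2A windows, but in 1 of 11 H3 windows and in none for H1 or H4. CCAAT was in every window of the classes H1, H2A, H2B and H3 and in 3 of 12 for H4. Of the H2A and H2B members with the octamer, 14 were tested, 9 rose and 1 fell. Of those without, 5 were tested and 3 rose. Both counts include members that passed the expression filter through only 1 group of libraries. Over all genes tested, 35.4% were called higher and 40.3% lower. Both H2BC8, which rose, and H2BC12, which was not called, held the octamer, TATAAA and CCAAT in the windows shown above.

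How far a gene model runs past the stop codon decides which transcripts a read count can take in, although the annotation used for counting was not given in the sources used here. In GENCODE 22 members have a transcript that runs more than 150 bases past the stop codon, beyond the stem-loop where one was found (in all of these but H2BC11); 19 were tested, 13 rose and none fell, with a median log2 fold change of 1.12. In 10 members the longest model ends 11 to 150 bases past the stop codon; 6 were tested, 3 rose and 1 fell (median 0.60). In 34 members it ends within 10 bases of the stop codon; 10 were tested, 2 rose and 1 fell (median -0.04), and all 6 members without a count were of this kind. The called members of this kind, H3C13, H4C12 and H2AC20, passed the expression filter through the group where they were higher. So did H2BC7 and H3C8 among the longest models, and H1-4, H2AC8 and H2AC19 among the models that end 11 to 150 bases past the stop codon. The counts by model therefore describe the tested members only. Of the 28 members with a stem-loop in the transcript, 22 were tested and 16 rose, among them 9 of 12 with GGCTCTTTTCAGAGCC and 4 of 4 with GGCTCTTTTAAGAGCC, whereas 1 of 2 rose with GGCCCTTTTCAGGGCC and 0 of 2 with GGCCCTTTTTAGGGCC. Of 7 members known also to give polyadenylated RNA (H1-2, H2AC6, H2BC4, H2BC5, H2BC11, H2BC12 and H2BC21), all were tested and 3 rose (median 0.14), against 15 of 28 other tested members (median 0.89). For all these counts, 35.4% of all genes tested were called higher and 40.3% lower. A stem-loop was found only in models that ran more than 10 bases past the stop codon. The stem-loop counts therefore largely repeat those of the longer models and are not a separate result. Whether cut and polyadenylated forms moved alike cannot be told apart in a count per gene. Long GENCODE models also overlap other members (H2BC15 with H2AC15 and H2AC16, H3C12 with H2AC17, H4C14 with H3C14, and H4C15 with H3C15), so reads of these pairs are uncertain. Of 4 members known from testis (H1-1, H1-6, H2AC1 and H2BC1), none reached the test.

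The genes that make histone mRNA were called in both directions. Of 9 genes of the histone locus body and of histone transcription, 2 rose and 6 fell, with a median log2 fold change of -0.40 (over all genes tested, 35.4% were called higher and 40.3% lower). NPAT, the cyclin E-CDK2 substrate that activates histone transcription, had 60.1, 64.6 and 66.2 CPM with olaparib and 25.0, 20.3 and 26.5 CPM with DMSO. It was 2.66-fold higher (log2 fold change 1.41 ± 0.12, edgeR adjusted p = 4.38e-07), without overlap. CASP8AP2 (FLASH), its partner in the histone locus body, was 1.30-fold higher (adjusted p = 0.0205), a call lost without olaparib replicate 1 (0.0637), DMSO replicate 1 (0.0505) or DMSO replicate 2 (0.0678) and with scaling by library size alone (0.0639). COIL, CCNE2 and E2F1 were 1.86-fold, 2.17-fold and 1.82-fold lower, and HINFP, which binds H4 promoters, was not called (log2 fold change -0.25, adjusted p = 0.0838), although it was called lower without DMSO replicate 1 (0.018).

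Of 13 genes listed for stem-loop binding, the U7 snRNP and cleavage at the 3' end of histone mRNA, 2 rose and 8 fell. Their median was -0.57, and 35.4% and 40.3% of all genes tested rose and fell. SLBP, which binds the stem-loop shown above, had 34.7, 37.2 and 33.0 CPM with olaparib and 145, 147 and 139 CPM with DMSO. It was 4.11-fold lower (log2 fold change -2.04 ± 0.10, edgeR adjusted p = 3.81e-09), in the direction opposite to most called members. LSM10 and LSM11, the U7-specific ring proteins, were 2.11-fold and 1.5-fold lower, ZNF473 (ZFP100), a U7 snRNP-associated protein, was 1.81-fold lower, and the endonuclease CPSF3 was 1.58-fold lower. All 4 were called (adjusted p 4.22e-06, 0.00064, 0.000147 and 6.35e-05).

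Of 10 genes of histone mRNA turnover, 3 rose and 4 fell, with a median of 0.06, shares close to those over all genes (35.4% higher and 40.3% lower). Genes that act in decay were called in both directions. ERI1, the exonuclease that trims the stem-loop, was 2.13-fold higher (edgeR adjusted p = 2.81e-06), TUT7, a uridylyltransferase, was 4.28-fold higher (1.91e-07), and XRN1, the 5'-to-3' exonuclease, was 2.59-fold higher (3.88e-06). LSM1, a subunit of the decay-promoting ring that binds the oligouridine tail, was 2.23-fold lower (1.05e-05), and the decapping enzyme DCP2 and the exosome nuclease EXOSC10 were 1.47-fold and 1.32-fold lower.

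**Figure D5:**
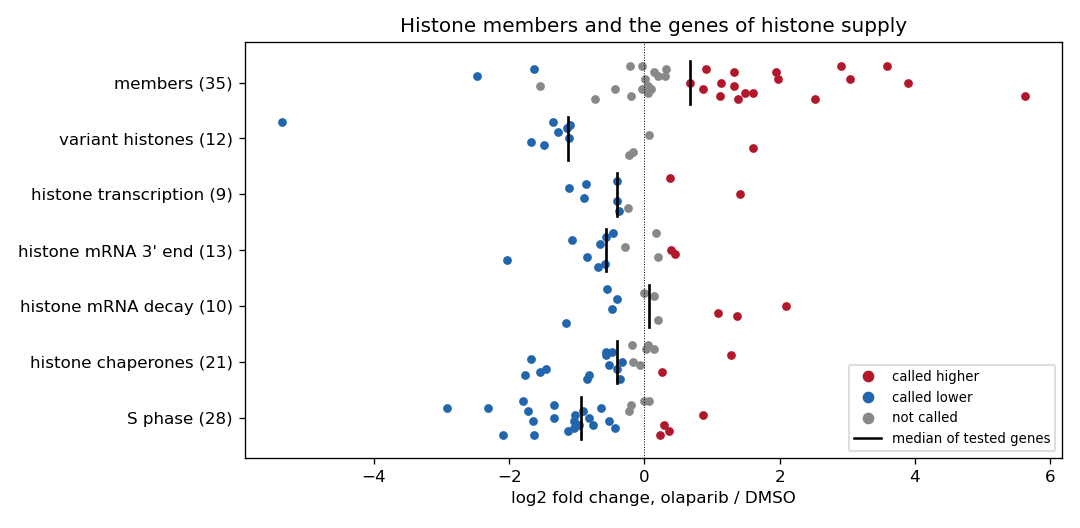
Log2 fold change, olaparib over DMSO (x axis), of each tested member and of each tested gene in 6 lists of histone supply (y axis, number tested in brackets), with red called higher, blue lower, grey not called and a black line at the median. The members' median is 0.67, and those of variant histones and S phase genes are -1.13 and -0.93.

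Variant histone genes, many of which are made throughout the cell cycle from polyadenylated mRNA, were called lower more often than higher. Of 12 variant histone genes, 1 rose, 8 fell and 3 were not called, with a median of -1.13 (40.3% of all genes tested were called lower and 35.4% higher), and the 12 summed to 1579 to 1703 CPM with olaparib and 3081 to 3533 CPM with DMSO. H2AX, whose protein marks DNA breaks and whose mRNA exists in a stem-loop and a polyadenylated form, had 65.6, 72.5 and 64.0 CPM with olaparib and 238, 222 and 185 CPM with DMSO. It was 3.19-fold lower (log2 fold change -1.68 ± 0.12, edgeR adjusted p = 7.63e-08), without overlap. H3-3A, which encodes H3.3, was 2.17-fold lower (7.09e-07), and MACROH2A2 was 41.1-fold lower (1.21e-09). H3-5 was the 1 that rose, 3.03-fold from low levels (0.0179).

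Genes of histone handling and of DNA synthesis were also called lower more often than higher, as were all genes tested (40.3% against 35.4%). Of 21 tested histone chaperone genes, 2 rose and 13 fell (median -0.41): CHAF1B of the replication-coupled CAF-1 complex was 3.4-fold lower, ASF1B 2.74-fold, HJURP 3.18-fold and HIRA 2.93-fold lower. Of 28 S phase genes, 4 rose and 20 fell (median -0.93), with GINS1 7.58-fold, PCNA 4.98-fold and RRM1 3.29-fold lower, whereas MCM2, MCM6, CDC6 and POLA1 rose, MCM2 by 1.82-fold. The summed level of the S phase genes was 3638 to 3806 CPM with olaparib and 5791 to 6213 CPM with DMSO, so it moved opposite to the summed level of the clustered histone genes; the part of cell cycle phase in the members' values was not tested.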

How the data were processed

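The values are raw counts of reads per gene symbol that the authors deposited as a single table, 1 column per library. Per the submitters' processing notes, fastp, STAR and hg38 were used; the counter, its strand setting and its annotation were not given in the sources used here, so reads of overlapping, antisense and near-identical genes could not be separated. More genes had 2 counts than 1 in all 6 libraries, which can come from counting each mate of a read pair, so counts may overstate fragments. Groups came from sample titles. The test was edgeR 4.0.16 (R 4.3.3) with filterByExpr at its defaults, TMM scaling and a robust quasi-likelihood fit on treatment alone, with Benjamini-Hochberg adjustment over all tested genes and calls at 0.05; the script was tested on simulated data. CPM are counts relative to TMM-scaled library sizes, and errors are SD over 3 libraries or SE of log2 fold changes. Gene and stem-loop positions came from GENCODE release 29, promoters from RefSeq (GRCh38.p14). Named were, in each class, the 3 called members with the largest changes and the member with the most counts, up to 4 genes per other list by adjusted p, and 9 genes by name; the remaining members were added to account for all. Members and lists were chosen with earlier results of these data known. Alternatives were RLE and library-size scaling, DESeq2 1.42.0, limma-voom (limma 3.58.1), 2 other filters, the replicate block, leaving out each library, and counts divided by 2, added after seeing the data. Not every gene picked by this rule is reported here.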

Additional observations from a re-analysis of the deposited data

How the results depend on the processing

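The number of members called higher was 15 to 18 under all alternatives and 15 to 17 when any 1 library was left out, always a subset of the 18 reported; the calls lost were those of H2AC19, H2BC6 and H2BC7, and that of H3C13 where a mean of 1 CPM was required and it was not tested. The number called lower was 2 to 4 when any 1 library was left out. It was 4 when every gene with at least 1 count was tested, which added H1-5 and H2AC4, and 3 with limma-voom, which added H2AC12. The replicate numbers did not pair the libraries: the correlations of deviations between same-numbered libraries were -0.18, -0.13 and -0.011, and with the replicate block 16 members were called higher and 2 lower, without H2AC19 (adjusted p = 0.0934) and H2BC6 (adjusted p = 0.0673). H2AC19 also lost its call with DESeq2 (0.101), library size alone (0.0536) and no low-count filter (0.126). Scaling by library size alone moved the median of all genes from -0.09 to -0.16 on the log2 scale. Of 63 named genes, 47 kept direction and call throughout. The reversals were all of members that were not called, and their cause was not tested. With limma-voom the log2 fold change was 0.051 for H1-2, -0.17 for H3C2 and -0.021 for H4C5; with the replicate block it was 0.032 for H1-2 and -0.12 for H3C2; with library size alone it was -0.0050 for H3C2, -0.0098 for H4C3 and -0.061 for H4C5. H4C5 was -0.0047 with every gene of at least 1 count and -0.0028 with counts divided by 2. Leaving out 1 library in turn gave ranges that crossed 0: -0.31 to 0.22 for H1-2, -0.65 to 0.16 for H1-3, -0.43 to 0.093 for H2AC18, -0.24 to 0.11 for H2BC12, -0.029 to 0.26 for H2BC21, -0.11 to 0.48 for H3C12, -0.51 to 0.45 for H3C2, -0.26 to 0.31 for H4C3, -0.17 to 0.15 for H4C5 and -0.13 to 0.33 for H4C9. HINFP was called lower with library size alone (adjusted p = 0.0353). The log2 ratios of the summed classes were recomputed with RLE, with library size alone and without each library. That of H2A ran from 1.35 to 1.55 and that of H3 from 1.31 to 1.49. Without DMSO replicate 1 the ratio was 0.058 for H2B and 0.53 for H4. Without DMSO replicate 2 it was 0.32 and 0.89, against 0.22 and 0.71 with all libraries. That of H1 ran from -0.35 without DMSO replicate 1 to 0.16 without DMSO replicate 2 and so turned sign. With all libraries it was -0.10. Depth limits the 25 untested members, which had 38 counts or fewer in either group.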

Other observations

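Some histone genes of the same clusters or families carry names outside the rule. H2AW, an H2A gene on chromosome 1, had 7.22 ± 0.470 CPM with olaparib and 56.8 ± 18 CPM with DMSO (SD, n = 3) and was 7.85-fold lower (log2 fold change -2.97 ± 0.21, edgeR adjusted p = 1.03e-07). H2BU1, an H2B gene, had 1.26 ± 0.287 and 4.16 ± 0.685 CPM and was 3.30-fold lower (-1.72 ± 0.28, adjusted p = 0.000108). Both moved opposite to most called members of their classes. H4-16, a further H4 gene outside the clusters, and H3-4, a testis H3 gene, were not called (adjusted p 0.184 and 0.616), nor were the pseudogenes H2BC19P (0.234) and H2BC20P (0.817). H3-2 had no count with olaparib and 3 counts with DMSO. These genes were chosen after their values were seen.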
